A study of Homo sapiens with 6 samples.

Results

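The plasminogen activator system was examined through 5 genes, PLAU, PLAT, PLAUR, SERPINE2 and SERPINB2, which were taken by their Ensembl 94 symbols from a table of 58735 genes. The cells were BT549, a human line of the basal-like subtype of breast cancer (BBC). AS1842856 binds the unphosphorylated form of the transcription factor FOXO1, which keeps it from DNA. The study proposes that the drug modulates FOXO1 and does not only inhibit it. RNA-Seq was performed on 3 libraries from BT549 cells that received DMSO, the vehicle, and 3 from BT549 cells that received AS1842856, each for 48 h, and replicates of a group were lettered A to C. The dose is 200 nM in the sample labels and 1 μM in the methods of the study. Neither group carried a genetic change beyond those of the cell line itself, and the libraries all come from this single line.

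Plasminogen is a circulating zymogen that is cut to plasmin, a protease that dissolves fibrin and degrades extracellular matrix. Urokinase (PLAU) and tissue plasminogen activator (PLAT) make this cut, urokinase mostly at the cell surface when bound to its receptor (PLAUR), and serpins such as protease nexin-1 (SERPINE2) and plasminogen activator inhibitor-2 (SERPINB2) trap the activators. In breast cancer the system is known for its part in invasion. The plasminogen gene itself, PLG, had 0 counts in all 6 libraries.

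Library totals lay between 15289500 and 22981832 counts. Of the 58735 genes, 14338 passed a filter on low counts, and all 5 genes of the system were among them. CPM here are counts relative to library size after TMM scaling in edgeR, and groups were compared by edgeR's quasi-likelihood test with Benjamini-Hochberg adjustment over all 14338 genes and a threshold of 0.05. By this test 56.0% of all genes were called, 27.6% as higher and 28.4% as lower in treated samples. The median over all genes was 0.0030 on the log2 scale. For a single gene, permuting 3 and 3 libraries (exact, two-sided) gives no p below 0.1, so the adjusted p-values rest on the fit across genes. Nothing in the files shows that replicates came from separate cultures, though the study calls them biological replicates, so p-values measure the spread between these libraries. The mesenchymal markers VIM, CDH2, ZEB1, CD44 and SPARC summed to between 3549 and 3640 CPM in DMSO and between 2730 and 2779 CPM with AS1842856. Of these, 4 were called lower. ZEB1 was called higher, with 69.7 ± 2.76 CPM in DMSO and 98.5 ± 4.03 CPM with AS1842856 (SD, n = 3 per group). The epithelial and luminal genes CDH1 and ESR1 had at most 1 count in any library. The 5 luminal markers summed to between 39.0 and 42.6 CPM in DMSO and between 3.81 and 4.44 CPM with AS1842856, nearly all of it KRT8, which overlaps KRT18 in the annotation. The 4 leukocyte markers PTPRC, CD3E, CD14 and ITGAM summed to between 1.02 and 2.15 CPM in DMSO and between 3.54 and 4.65 CPM with AS1842856, with CD3E at 0 in every library. PTPRC averaged 1.149 ± 0.433 CPM in DMSO and 3.16 ± 0.480 CPM with AS1842856 (SD, n = 3 per group), and CD14, which did not pass the filter, averaged 0.335 and 0.737 CPM. The 5 endothelial markers summed to between 0.538 and 1.05 CPM in DMSO and between 1.31 and 1.86 CPM with AS1842856, with CDH5 at 0 throughout. Most of this was TEK, which averaged 0.771 CPM in DMSO and 1.27 CPM with AS1842856. TEK was not called (adjusted p = 0.114, edgeR), and its libraries overlapped between the groups. The summed levels of all 4 marker lists did not overlap between the groups, and the part of all these markers in the results was not tested.

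All 5 genes of the system were differentially expressed, 3 lower and 2 higher with AS1842856, beside 56.0% of all genes tested. PLAU fell most, to 32.5% of its DMSO level, and PLAT and SERPINE2 fell less. PLAUR rose 1.35-fold, and SERPINB2 rose 7.13-fold from a very low level. For all 5, treated and DMSO libraries occupied separate ranges, as was the case for 59.9% of all genes tested, 29.5% higher and 30.3% lower. In RNA from whole cultures, fewer cells that express a gene and less of its RNA per cell cannot be told apart.

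**Figure D1:**
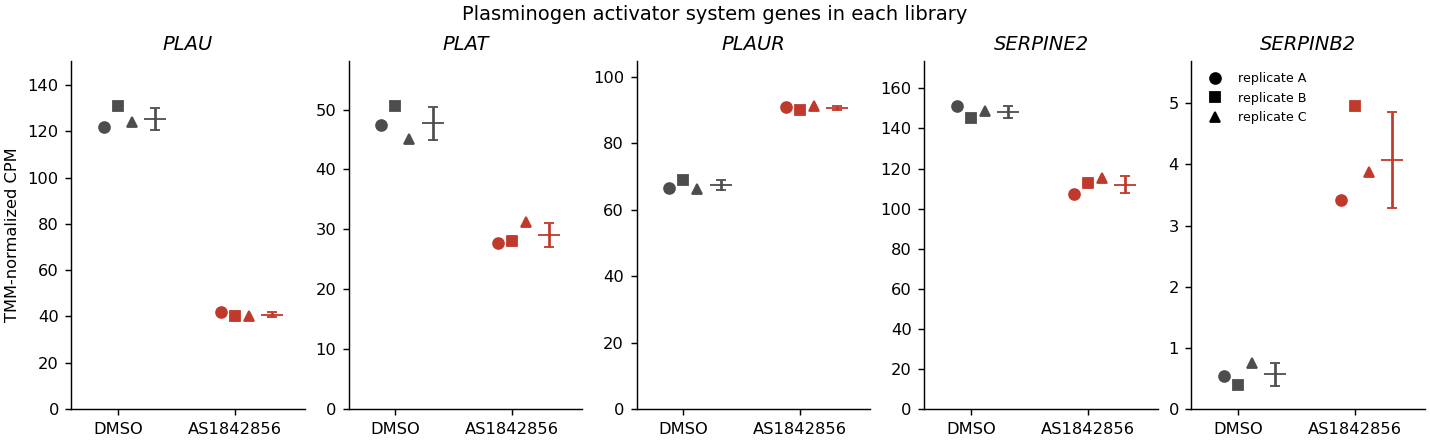
TMM-normalized CPM (y axis, from 0 in each panel) of the 5 genes in each library (points, with a symbol per replicate) by treatment (x axis), with the group mean and SD beside them (n = 3 per group). PLAU, PLAT and SERPINE2 are lower and PLAUR and SERPINB2 higher in every AS1842856 library than in any DMSO library.

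Of the activators, PLAU (ENSG00000122861, chr10:73909177-73917497, plus strand, GRCh38) encodes urokinase. Its level was 121.7, 130.7 and 123.8 CPM in DMSO replicates A, B and C, and 41.9, 40.1 and 40.2 CPM in AS1842856 replicates A, B and C. Every treated library was thus near 40 CPM while the lowest DMSO library was at 121.7 CPM. The means were 125.4 ± 4.73 and 40.7 ± 1.01 CPM (SD, n = 3 per group). The quasi-likelihood fit of edgeR put the log2 fold change at -1.62 ± 0.05 (SE), with an adjusted p of 2.75e-88. By the size of this value PLAU ranked 351 among the decreases of all 14338 genes tested. Omitting any single library left the estimate between -1.65 and -1.60. PLAU shares 916 exonic bases with C10orf55, a gene of the other strand whose counts amounted to 1.44% of those of PLAU (37, 35 and 27 in DMSO and 5, 21 and 9 with AS1842856). C10orf55 was also lower with AS1842856 (-1.56 on the log2 scale, adjusted p = 8.35e-05, edgeR). Whether counting used strand is not given in the sources used here, so reads of the pair cannot be told apart.

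PLAT (ENSG00000104368, chromosome 8, minus strand) encodes tissue plasminogen activator, which acts best on fibrin. It had 47.5, 50.5 and 45.1 CPM in DMSO and 27.8, 28.0 and 31.3 CPM with AS1842856 (replicates A, B and C). The highest treated library, replicate C, remained well below the lowest DMSO library. Group means were 47.7 ± 2.72 and 29.02 ± 1.97 CPM (SD, n = 3 per group), for which edgeR estimated -0.72 ± 0.07 (SE) on the log2 scale at an adjusted p of 1.38e-21. Omission of single libraries gave estimates that ran from -0.77 to -0.68.

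The deposited FPKM values, which are divided by gene length, set the activators beside each other. Comparisons between genes rest on the length used for each. The annotated exons of all transcripts together cover 2950 bases for PLAU and 6618 for PLAT. PLAU was at 42.3 ± 1.53 FPKM in DMSO and 13.7 ± 0.354 with AS1842856, and PLAT at 7.16 ± 0.400 and 4.36 ± 0.291 (SD, n = 3 per group). PLAU thus made up between 85.2% and 86.0% of the summed activator FPKM in the DMSO libraries and between 74.2% and 77.2% in the AS1842856 libraries. The ratio of PLAU to PLAT was 5.91 ± 0.222 in DMSO and 3.16 ± 0.257 with AS1842856. The summed FPKM of both went from 49.4 ± 1.85 to 18.1 ± 0.312.

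PLAUR (ENSG00000011422, chr19:43646095-43670547, minus strand) encodes the urokinase receptor, a protein anchored in the membrane by a lipid that holds urokinase at the cell surface. It had 66.5, 69.0 and 66.4 CPM in DMSO and 90.8, 89.9 and 91.1 CPM with AS1842856 (replicates A, B and C). The treated libraries lay within a narrow band above all DMSO libraries. The mean rose from 67.3 ± 1.48 to 90.6 ± 0.604 CPM (SD, n = 3 per group), for which edgeR estimated 0.43 ± 0.05 (SE) on the log2 scale at an adjusted p of 1.90e-15, which ranked 1978 among the increases of all genes tested. Omission of single libraries gave estimates that lay between 0.42 and 0.44. The small RNA gene RN7SL368P lies within PLAUR on the same strand without sharing an exon and had at most 5 counts.

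The receptor and its ligand therefore moved in opposite directions. The ratio of PLAU to PLAUR, in FPKM, was between 2.76 and 2.86 in the DMSO libraries and between 0.666 and 0.697 in the AS1842856 libraries. The size of this ratio in a group rests on the length used for each gene.

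Of the inhibitors, SERPINE2 (ENSG00000135919, chr2:223975112-224039319, minus strand) encodes protease nexin-1, a secreted serpin that inhibits thrombin, urokinase and tissue plasminogen activator. It had 151.0, 145.1 and 148.6 CPM in DMSO and 107.2, 112.7 and 115.5 CPM with AS1842856 (replicates A, B and C). All treated libraries lay below all DMSO libraries. Group means were 148.2 ± 2.98 and 111.8 ± 4.25 CPM (SD, n = 3 per group), for which edgeR estimated -0.41 ± 0.04 (SE) on the log2 scale at an adjusted p of 2.31e-18. Left-out libraries gave values between -0.43 and -0.38. No gene of the annotation overlapped SERPINE2 or PLAT.

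SERPINB2 (ENSG00000197632, chr18:63871692-63903890, plus strand) encodes plasminogen activator inhibitor-2, a clade B serpin that stays largely inside cells. It had 12, 6 and 14 counts in DMSO and 57, 113 and 69 counts with AS1842856 (replicates A, B and C), or 0.547, 0.391 and 0.753 CPM against 3.42, 4.95 and 3.87 CPM. Treated replicate B was the highest, and the lowest treated library was still several times the highest DMSO library. The mean rose from 0.564 ± 0.182 to 4.08 ± 0.786 CPM (SD, n = 3 per group), for which edgeR estimated 2.83 ± 0.29 (SE) on the log2 scale at an adjusted p of 3.53e-18, which ranked 104 among the increases. The summed counts were 32 in DMSO (exact Poisson 95% interval 21.9 to 45.2) and 239 with AS1842856 (209.7 to 271.3), and these intervals cover counting error only. Counting alone gives a coefficient of variation of 30.6% for a DMSO library, and the DMSO libraries varied by 32.3%. Omission of single libraries gave estimates that ran from 2.66 to 3.08, and on the log2(FPKM + 1) scale, which understates changes of low genes, it was 1.04. SERPINB2 shares 547 exonic bases with SERPINB10 on the same strand, which had 0, 2 and 0 counts in DMSO and 2, 7 and 11 with AS1842856, so a small part of the reads is uncertain.

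**Figure D2:**
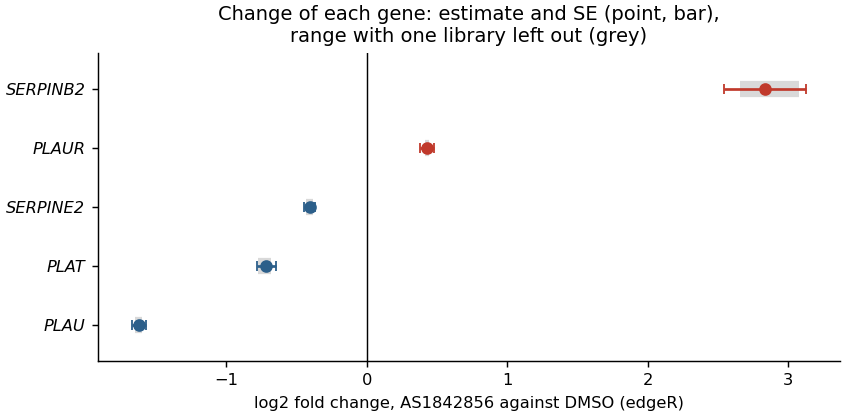
Log2 fold change of each gene with AS1842856 against DMSO (x axis, edgeR), with its standard error (bars, 3 libraries per group) and the range obtained with each library left out in turn (grey). SERPINB2 (2.83) and PLAUR (0.43) lie above 0, and SERPINE2 (-0.41), PLAT (-0.72) and PLAU (-1.62) lie below 0.

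Per gene length the order of the levels changed with treatment. That order rests on the length used for each gene, and all annotated exons cover 8891 bases for SERPINE2, 4457 for PLAUR and 2950 for PLAU. In CPM, which use no length, SERPINE2 was highest in both groups. Its means of 148.2 and 111.8 CPM compare with 125.4 for PLAU in DMSO and 90.6 for PLAUR with AS1842856. The orders below are in FPKM. In DMSO the order was PLAU, SERPINE2 (16.6 ± 0.358 FPKM), PLAUR (15.01 ± 0.309), PLAT and SERPINB2 (0.204 ± 0.066), with PLAU at 2.55 times SERPINE2. With AS1842856 the order was PLAUR (20.2 ± 0.130 FPKM), PLAU, SERPINE2 (12.5 ± 0.461), PLAT and SERPINB2 (1.48 ± 0.284). No neighbours in either order overlapped, but the gaps were small between SERPINE2 and PLAUR in DMSO, where the lowest SERPINE2 library had 16.2 FPKM and the highest PLAUR library 15.4, and between PLAU and SERPINE2 with AS1842856, at 13.5 and 12.9 FPKM. SERPINB2 went from 1.21% ± 0.378 to 10.5% ± 1.67 of the summed FPKM of the inhibitors SERPINE2 and SERPINB2. That sum was 16.8 ± 0.398 FPKM in DMSO and 14.0 ± 0.644 with AS1842856, so the ratio of activator to inhibitor FPKM went from 2.95 ± 0.182 to 1.30 ± 0.079 (SD, n = 3 per group). These ratios are descriptions of transcripts of these 4 genes, rest on the lengths used and were not tested.

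**Figure D3:**
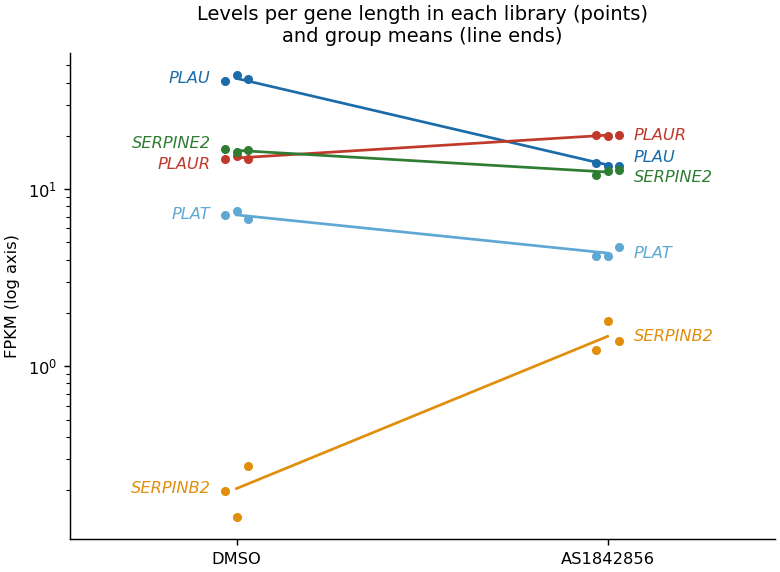
Deposited FPKM (y axis, log scale) of the 5 genes in each library (points) and their group means (line ends) in DMSO and with AS1842856 (x axis, 3 libraries each). PLAU is highest in DMSO at 42.3 FPKM, and PLAUR is highest with AS1842856 at 20.2 FPKM.

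The sequences around the gene starts are shown because PLAU fell while PLAUR and SERPINB2 rose. RefSeq windows on GRCh38.p14, from 250 bases before to 50 bases after a start, were matched for 4 of the 5 genes, in 6 windows, with a pair of starts each for PLAU and SERPINE2. The windows printed for PLAU, PLAUR and SERPINB2 lie inside the Ensembl gene spans given above, downstream of the first annotated base. PLAT had no window and is named only, and sequence outside the windows was not searched. Both strands were searched for 9 short motifs, chosen with the changes known. For FOXO factors the letters were GTAAACA. For AP-1 they were TGANTCA. For the cyclic AMP response element they were TGACGTNA. For TCF/LEF factors they were CTTTGAT. For ETS factors they were CAGGAAG and, with another flank that overlaps it, AGGAAGT. The motif of NF-kB is given by name alone. The core promoter motif was TATAAA and the GC box was GGGCGG. In the lines that follow, 5′ to 3′ on the gene's strand, capitals mark the matches.
PLAU, chr10:73910882-73911181, plus strand: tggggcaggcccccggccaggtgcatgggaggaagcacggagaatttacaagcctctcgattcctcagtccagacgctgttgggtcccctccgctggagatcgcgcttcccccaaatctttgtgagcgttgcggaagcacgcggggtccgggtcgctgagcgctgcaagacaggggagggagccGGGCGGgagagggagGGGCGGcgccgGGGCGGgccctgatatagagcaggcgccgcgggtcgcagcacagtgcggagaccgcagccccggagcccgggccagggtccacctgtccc
PLAUR, chr19:43670120-43670419, minus strand: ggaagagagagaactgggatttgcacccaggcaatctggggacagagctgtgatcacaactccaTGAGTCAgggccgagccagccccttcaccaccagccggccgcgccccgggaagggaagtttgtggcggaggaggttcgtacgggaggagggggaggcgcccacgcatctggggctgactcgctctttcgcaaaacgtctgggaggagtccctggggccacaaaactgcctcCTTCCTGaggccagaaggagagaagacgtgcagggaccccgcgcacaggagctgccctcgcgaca
SERPINB2, chr18:63887455-63887754, plus strand: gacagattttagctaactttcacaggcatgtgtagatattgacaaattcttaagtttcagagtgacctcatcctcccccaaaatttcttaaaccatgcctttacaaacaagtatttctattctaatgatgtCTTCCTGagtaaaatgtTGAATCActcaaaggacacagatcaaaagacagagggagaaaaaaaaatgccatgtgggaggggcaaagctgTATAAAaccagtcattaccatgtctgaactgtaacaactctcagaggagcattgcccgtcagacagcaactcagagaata
The PLAUR window held an AP-1 match beginning 186 bases before the start and an ETS match (CAGGAAG, on the other strand) beginning 15 bases before it. The SERPINB2 window held an AP-1 match at 102 bases, an ETS match (CAGGAAG, on the other strand) at 119 bases and a TATAAA match at 30 bases before the start. Among all 35116 windows of this length, 7.71% held the AP-1 letters, 12.7% the ETS letters CAGGAAG and 11.5% the letters TATAAA. The PLAU window held 3 GC box matches, at 66, 51 and 40 bases before the start, and GC boxes were also found in both SERPINE2 windows, beside 44.95% of all windows. The other PLAU window held none of the 9 motifs. The FOXO, TCF/LEF, NF-kB and cyclic AMP motifs and the ETS letters AGGAAGT, held by 3.42%, 2.62%, 5.68%, 3.01% and 8.24% of all windows, were in none of the 6. Each of the 9 motifs was searched as a single pattern of letters, so other spellings of a site may be present in these windows. A match describes the letters of a window and is not a measured binding site.

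Other genes of the pathway were taken from lists, and their counts are given beside the 56.0% of all genes called. Of 13 plasminogen and clearance receptor genes, 10 were tested, of which 4 were higher, 2 were lower and 4 were not called (list median 0.07, log2 scale). IGF2R, a receptor for lysosomal enzymes that also binds the urokinase receptor, rose from 236.6 ± 17.6 to 383.2 ± 11.6 CPM (SD, n = 3 per group) (0.70 ± 0.04 on the log2 scale, SE). S100A10, the partner of annexin A2 in binding plasminogen, rose by 0.35 on the log2 scale. ENO1, a glycolytic enzyme that binds plasminogen at the cell surface, changed by -0.34 and MRC2, a collagen receptor associated with the urokinase receptor, by -0.43 on the log2 scale. ANXA2 and LRP1, the endocytic receptor of inhibited urokinase, were not called, with log2 fold changes of 0.02 (adjusted p = 0.66) and -0.07 (adjusted p = 0.23) in edgeR's test.

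Of 7 other inhibitors of the activators or of plasmin, only SERPINI1 passed the filter. SERPINI1 encodes neuroserpin, an inhibitor of tissue plasminogen activator, and rose from 1.25 ± 0.179 to 3.74 ± 0.892 CPM (SD, n = 3 per group), for which edgeR estimated 1.58 ± 0.25 (SE) on the log2 scale at an adjusted p of 9.90e-09. SERPINA5, A2M and PZP had 0 counts in every library. Of 12 other clade B serpins, the family of SERPINB2, 6 were tested and all 6 were called, 3 higher and 3 lower (list median 0.40, log2 scale). SERPINB4 rose from 0.566 ± 0.267 to 7.66 ± 2.30 CPM (3.70 ± 0.25 on the log2 scale, SE), and SERPINB7 from 18.6 ± 1.33 to 40.8 ± 0.558 CPM (1.14 ± 0.08 on the log2 scale, SE). SERPINB4 is nearly identical to SERPINB3, so reads could be divided between them. SERPINB8 (-0.82) and SERPINB1 (-0.38) had the largest falls on the log2 scale. With SERPINB3, which had at most 3 counts in each DMSO library, at its lower bound, that median was again 0.40. The median could not move here, because SERPINB3 stayed above the middle values of the list. SERPINB2 lies on chromosome 18 with SERPINB3, SERPINB4 and SERPINB7, which were higher, and SERPINB8, which was lower. The other lower genes of the list, SERPINB1 and SERPINB6, lie on chromosome 6.

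Of 15 ligand and membrane partner genes of the urokinase receptor, 10 were tested, of which 1 was higher and 8 were lower (list median -0.42, log2 scale). SRPX2, a secreted ligand of the urokinase receptor, was the single higher gene and went from 7.65 ± 1.16 to 39.1 ± 2.12 CPM (2.33 ± 0.09 on the log2 scale, SE). SRPX2 overlaps SYTL4 of the other strand, whose counts were 19.1% of those of SRPX2. ITGB3, a subunit of the vitronectin receptor, went from 3.64 ± 0.164 to 0.693 ± 0.046 CPM (-2.37 ± 0.29 on the log2 scale, SE), and ITGA3, a laminin receptor subunit, changed by -0.99 on the log2 scale. Among 17 other pericellular serine proteases and their inhibitors, 6 were tested, 1 was lower and 5 were not called (median -0.12). The lower gene was PRSS23, a secreted serine protease, which went from 148.4 ± 3.56 to 44.4 ± 1.25 CPM (-1.74 ± 0.05 on the log2 scale, SE).

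Of 12 cell surface coagulation genes, 8 were tested, 3 higher and 4 lower (list median -0.07, log2 scale). F2RL1, a protease-activated receptor cleaved by trypsin-like proteases, rose from 1.48 ± 0.139 to 17.7 ± 1.81 CPM (3.59 ± 0.16 on the log2 scale, SE), and F2R, the thrombin receptor, rose by 1.36 on the log2 scale. F3, the tissue factor that starts coagulation, and its inhibitor TFPI were both lower, with log2 fold changes of -1.42 and -1.33. Of 15 AP-1 and ETS transcription factors, 14 were tested, 7 higher and 6 lower (median -0.03). ATF3 (1.14) and FOS (0.97) had the largest rises and JUND (-0.59) and ETS1 (-0.53) the largest falls on the log2 scale. Of 8 proteins that bind AU-rich elements in mRNA, 2 were higher and 5 lower (median -0.16), with values of 0.32 for KHSRP, 0.17 for TIA1, -1.17 for ZFP36L2 and -0.67 for ZFP36.

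**Figure D4:**
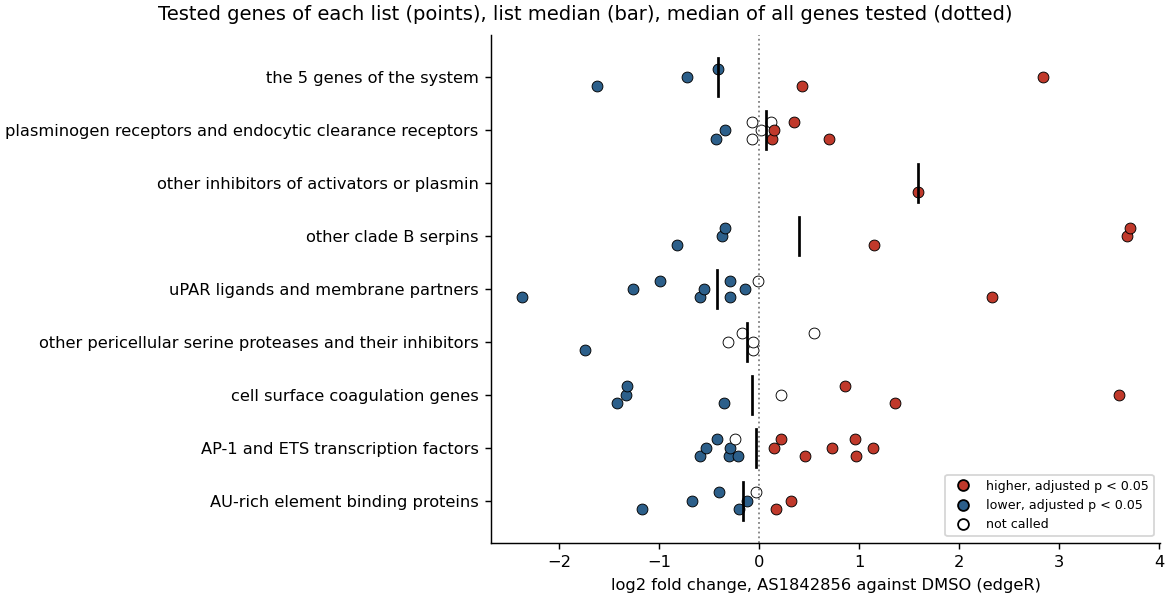
Log2 fold change with AS1842856 against DMSO (x axis, edgeR) of each tested gene (points) in the system and in 8 lists of related genes (rows), filled where the adjusted p was under 0.05, with each list's median (bar) and the median of all 14338 genes (dotted line). Most partners of the urokinase receptor lie below 0, with a median of -0.42, and the other lists hold values on both sides or a single tested gene.

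Genes whose levels followed those of the system most closely were found by the Euclidean distance between log2 CPM profiles over the 6 libraries, each centred on its DMSO mean, among 13019 genes with a mean of at least 1 CPM. The nearest to PLAU were TGM2 (distance 0.10), KLF7 (0.14) and EPG5 (0.14), with log2 fold changes of -1.65, -1.60 and -1.64. TGM2 encodes the matrix crosslinking enzyme transglutaminase 2 and went from 172.9 to 54.9 CPM. The nearest to PLAT were BAIAP2L2 (0.07), RUSC2 (0.08) and ISG15 (0.09). For PLAUR they were PTPRK (0.03), TSPAN5 (0.05) and CCND3 (0.06), and for SERPINE2 ALDH18A1, DAB2IP and CCDC85C (0.05 each). The low counts of SERPINB2 gave larger distances, 0.60 to COL5A1-AS1, 0.65 to FCMR and 0.67 to PMEPA1. The profiles follow the treatment in 6 libraries and are given as a description.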

How the data were processed

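RNA-Seq counts and FPKM values of 6 BT549 libraries were used, and samples were grouped by the treatment label. The authors had RNA sequenced on Illumina instruments, called bases with CASAVA and mapped reads with STAR per the study's methods, while the submitters' processing notes name Bowtie 0.12.2 and GRCh38. Counts per gene were deposited raw. FPKM, which correct for gene length and library size, were deposited for 25015 genes. The counting tool is not given in the sources used here. All 58735 gene identifiers were found in GENCODE release 29 (Ensembl 94, GRCh38).

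Counts were filtered with filterByExpr (minimum count 10, minimum total 15), scaled by TMM and tested with glmQLFit (robust) and glmQLFTest of edgeR 4.0.16 in R 4.3.3, with no block. The standard error was the size of the log2 fold change divided by the square root of F. The common biological coefficient of variation was 0.0374. Alternatives were DESeq2 1.42.0, other scalings and filters, limma 3.58.1 on FPKM, each library left out and the replicate letter as a block. Tests were checked on simulated counts first, where 191 of the 14109 genes that edgeR tested had been changed. That check did not cover a change as broad as the 56.0% of genes called here. In profile distances 0.01 CPM was added before the log2.

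The genes and lists were chosen with earlier results of these data known. Named genes are the 5 genes and those overlapping them, and from each list the called genes with the 2 largest increases and 2 largest decreases at a mean of at least 1 CPM, and the 3 nearest profiles of each of the 5. The few others were named after their values were seen. 1 marker of the leukocyte list is not reported here and stays out of its sum.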

Additional observations from a re-analysis of the deposited data

How the results depend on the processing

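All 5 genes kept their direction and their call in each of the 15 alternatives in which they were tested (14 for SERPINB2, which a mean of at least 50 counts removed). Across these the log2 fold change ran from -1.65 to -1.55 for PLAU, from -0.77 to -0.61 for PLAT, from 0.41 to 0.44 for PLAUR, from -0.43 to -0.38 for SERPINE2 and from 1.04 to 3.08 for SERPINB2. The value of 1.04 came from limma on log2(FPKM + 1), a pseudocount larger than the DMSO level of SERPINB2, and log2(FPKM + 0.1) gave 2.38. The number of genes called was 8029, between 6453 and 8030 with all libraries and between 7427 and 7678 with each library left out, 7427 without AS1842856 replicate B. Other scalings moved the median log2 fold change of all genes to at most 0.0055. With the replicate letter as a block, 7862 genes and all 5 genes of the system were called. Libraries with the same letter did not deviate together (correlations of 0.042, -0.012 and -0.0033 for A, B and C), so the letters were not taken as pairs. Depth limits SERPINB2 most, with 6 to 14 counts per DMSO library.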
